A study of Mus musculus with 3 samples.

Results

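Wound skin taken on day 14 after excision was compared with wound skin taken on day 10, gene by gene, as the difference of their log2 expression values. A gene entered the comparison when its highest value over all arrays of the study reached the median of that quantity, 8.36 log2 units, and 9969 of 19938 genes with a symbol did so. The mice were of the inbred strain C57Bl/6, 6 weeks old, and carried no genetic change or treatment named in the labels. Each had a wound of 1.5 cm2 on the back, cut through epidermis and dermis. Healing dermis with whatever epidermis covered it was pooled from 3 mice for day 10, from 3 for day 12 and from 3 for day 14, and the dissection left out intact skin around the wound and follicles at its margin. Each pool was hybridised to 1 array with 1 colour, so no difference given here has a replicate check, no p-value was computed, and the number of arrays limits the precision. Day 12 is given beside the other days to show where it lay.

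A full-thickness wound is closed by keratinocytes that migrate in from its edge and then rebuild a stratified, cornified sheet. Below them, fibroblasts lay down granulation tissue, and those that become contractile myofibroblasts pull the wound together, while new vessels and blood leukocytes fill the bed. As repair proceeds, the new epidermis matures, contractile and inflammatory cells decline, and in large wounds of mice hair follicles can form again in the centre.

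The tissue carried the defining transcripts of both skin layers on each day. Krt5 and Krt14, keratins of basal keratinocytes, stood at 13.23 and 13.30 on day 10 and at 13.28 and 13.31 on day 14. Krt1 and Krt10, keratins of the layers above, differed by 0.15 and 0.26. Col1a1 and Col3a1, the main fibrillar collagens of dermis, differed by 0.00 and 0.03, the mesenchymal filament gene Vim by −0.01, and Pdgfra, a receptor of fibroblasts, by −0.29. The wound keratins Krt6a and Krt17 stood at 12.79 and 12.92 on day 10 and differed by −0.11 and −0.02.

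Across all genes compared, the days were alike for most transcripts, and the larger differences were more often toward day 14. Genes higher on day 14 by 2-fold or more numbered 223 (2.24%), and those lower by as much numbered 91 (0.913%). At 4-fold the counts were 30 and 4, whereas at 1.5-fold they were 525 and 517. By any size, 29.6% of genes were higher, 53.8% were lower and 16.6% held exactly equal values. Such ties arise when probes are summarised over few arrays, so an equal value is not a precise measurement of no difference. The median difference was −0.02, with an interquartile range from −0.21 to 0.04, and Pearson's r across all probe sets, which are not independent, was 0.991. Quantile scaling moved the median to 0.01, so the excess of slightly lower genes depends on the scaling. The spread in difference between probe sets of the same gene, over 472 genes with a pair of them, was 0.08 as a robust SD, and its 95th percentile was 0.30. That spread is technical and does not cover the spread between animals. The share of genes at least 2-fold higher was 3.29% among the 2493 genes of lowest mean level and 1.48% among the 2492 of highest, and the shares lower were 1.68% and 0.281%.

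**Figure D1:**
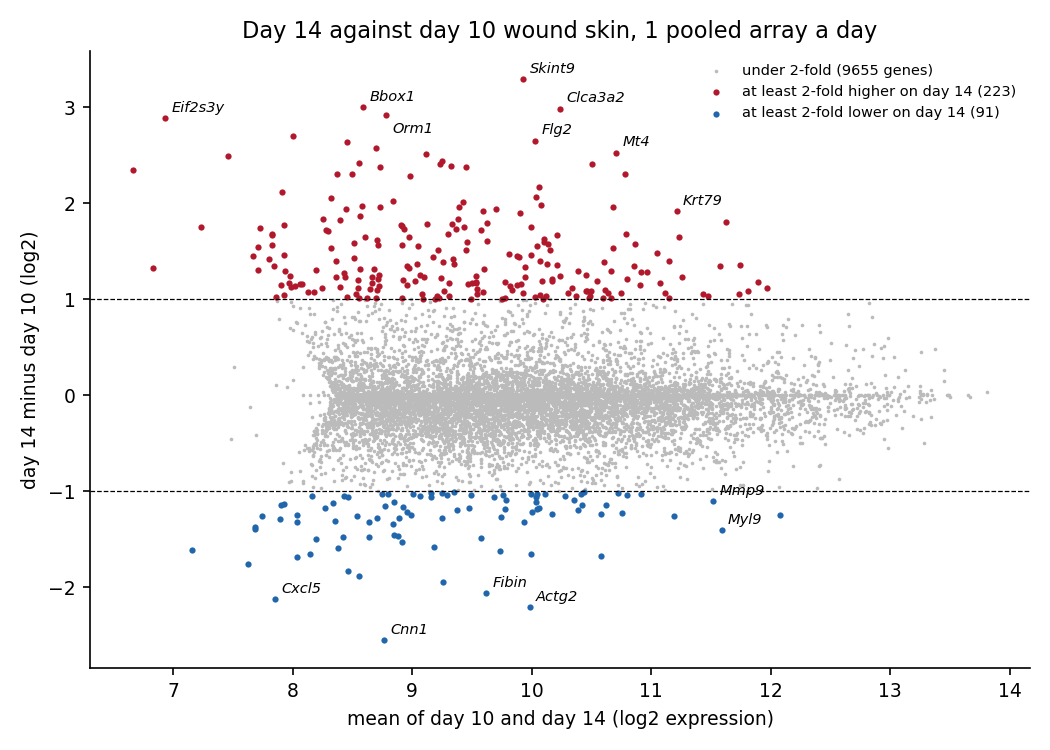
Difference between day 14 and day 10 (vertical axis, log2) against the mean level of both days (horizontal axis, log2 expression), 1 point for each of 9969 genes, with dashed lines at 2-fold. Red points are the 223 genes past 2-fold toward day 14 and blue points the 91 past 2-fold toward day 10, and the red points reach further from 0 than the blue ones.

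The largest differences toward day 14 were those of Skint9, Bbox1, Clca3a2 and Orm1. Skint9 stood at 8.28 on day 10, 11.07 on day 12 and 11.58 by day 14, and was higher by 3.30 log2 units or 9.84-fold. It belongs to a family of immunoglobulin-like membrane proteins made by keratinocytes and thymic epithelium. Bbox1, which encodes the last enzyme of carnitine synthesis, stood at 7.09, 9.31 and 10.10 and was 8.03-fold higher on day 14. Clca3a2, of a family of chloride channel regulators, stood at 8.74, 11.43 and 11.73 and was 7.94-fold higher. Orm1, an acute-phase glycoprotein of plasma, stood at 7.32, 9.69 and 10.25 and was 7.60-fold higher. In each of these genes day 12 lay closer to day 14 than to day 10. Flg2, a filaggrin-like protein of the cornified layer, was 6.30-fold higher on day 14, and Serpinb7, an epidermal protease inhibitor, was 5.98-fold higher. Aadac, a lipid esterase, and Cyp17a1, an enzyme of steroid synthesis, were 6.50-fold and 5.72-fold higher. Lpo, a peroxidase of secretions, Defb6, an antimicrobial defensin, and Oas1f, of the oligoadenylate synthetase family, lay between the 5.35-fold of Lpo and the 5.26-fold of Oas1f. Tnxb, the matrix protein tenascin X, was 5.19-fold higher.

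The genes lower on day 14 by the most were Cnn1, Actg2 and Cxcl5. Cnn1, which encodes the smooth muscle protein calponin 1, stood at 10.04 on day 10, 8.15 on day 12 and 7.49 on day 14 and was 5.85-fold lower. Actg2, the gamma 2 actin of smooth muscle, stood at 11.09, 9.32 and 8.88 and was 4.61-fold lower. Cxcl5, a chemokine that attracts neutrophils, stood at 8.92, 7.81 and 6.79 and was 4.37-fold lower. These genes were highest on day 10 and lowest on day 14, with day 12 between. Fibin, a secreted protein first described in fin development, was 4.18-fold lower on day 14, and the Wnt ligand Wnt2b was 3.85-fold lower. Cck, a peptide hormone, and Gria1, a glutamate receptor subunit, were 3.70-fold and 3.55-fold lower. Clec2e, a C-type lectin, Cdh10, a cadherin, Stra6, a membrane receptor for retinol transport, and Dsc2, a desmosomal cadherin, were lower by factors of 3.38, 3.22, 3.19 and 3.15. Rpp25, a subunit of ribonuclease P, Cdo1, a cysteine dioxygenase, and Rbpms2, an RNA-binding protein, were 3.15-fold, 2.82-fold and 2.79-fold lower, and Ptprn, a protein of secretory granules, differed by −1.58.

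**Figure D2:**
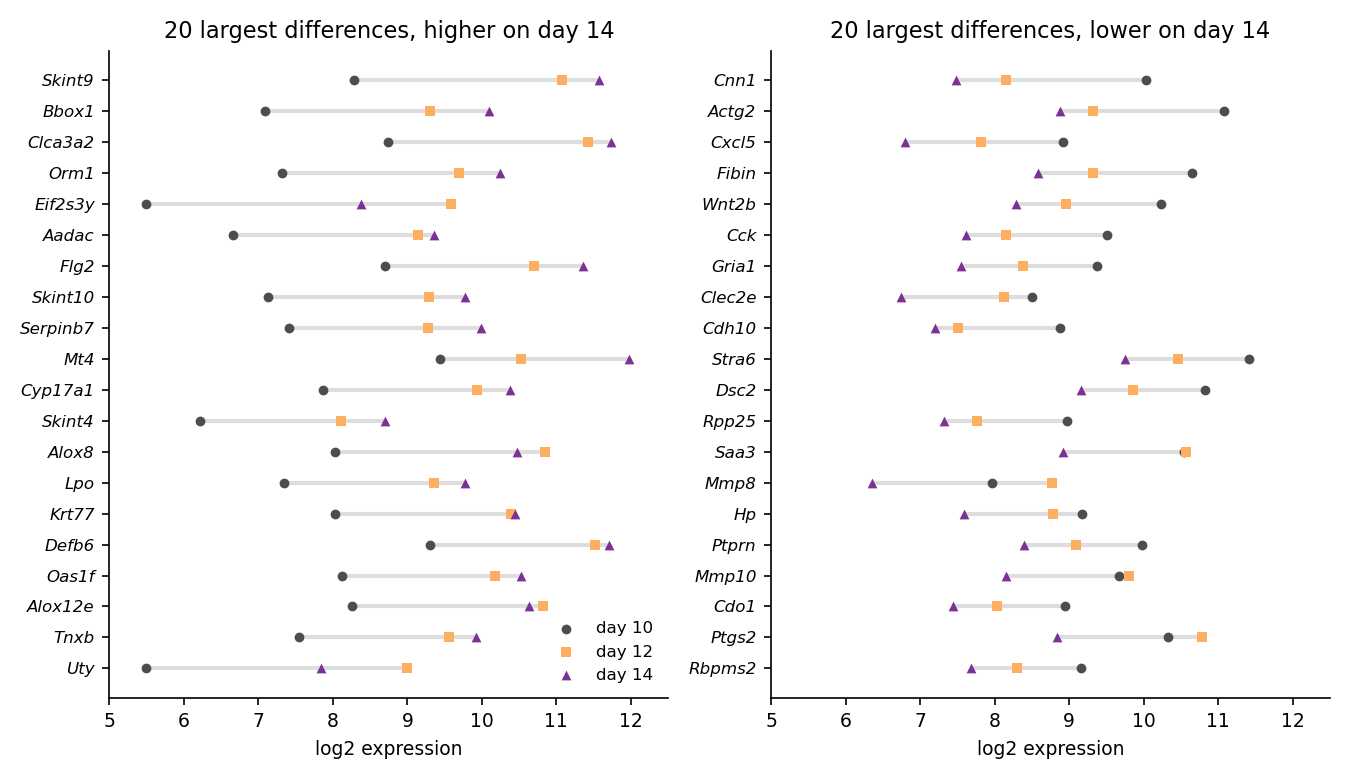
Log2 expression on day 10 (circles), day 12 (squares) and day 14 (triangles) for the 20 nameable genes with the largest differences in each direction, 1 pooled array a day. In most rows the square lies between the other marks, while in Mmp8, Mmp10, Ptgs2 and Saa3 on the right and in Alox8, Alox12e, Eif2s3y and Uty on the left day 12 was highest.

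Day 12 lay between the other days in most genes of both directions. The share of genes with most of their difference present by day 12 was larger among the higher genes. Of the 223 higher genes, day 12 lay between the other days in 202, was highest in 19 and equalled day 14 in 2. In 215 of them more than 50% of the difference was present by day 12. Of the 91 lower genes, day 12 lay between in 81, was highest in 8 and was at or below day 14 in 2, and more than 50% of the difference was present by day 12 in 69. The 8 lower genes with their highest value on day 12 were Saa3, Mmp8, Mmp10, Ptgs2, Trem1, Ccr1, Ppbp and A530064D06Rik, all but the last known in inflammation or matrix breakdown. A gene could pass the level filter on either side, and 94 of the 223 were below it on day 10 while 41 of the 91 were below it on day 14. The remaining 129 and 50 stood at or above 8.36 on all days.

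Genes were next grouped into lists by cell type, structure or pathway, and each list is described by its members above the filter beside the whole set of genes, whose median was −0.02. In that whole set 29.6% of genes were higher and 53.8% lower, and list counts near those shares are not read as a direction. In bulk tissue, fewer cells of a type and less RNA per cell cannot be told apart. Genes of epidermal differentiation made the broadest group higher on day 14. Of 54 cornified epidermis genes, 44 were higher and 9 lower, 12 were higher by 2-fold or more and 0 were lower by as much. The median difference was 0.52 with an interquartile range from 0.25 to 0.95, and it was 0.49 over all 58 members measured. Of the 54, 3 passed the filter by their day 14 value while below it on day 10.

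**Figure D3:**
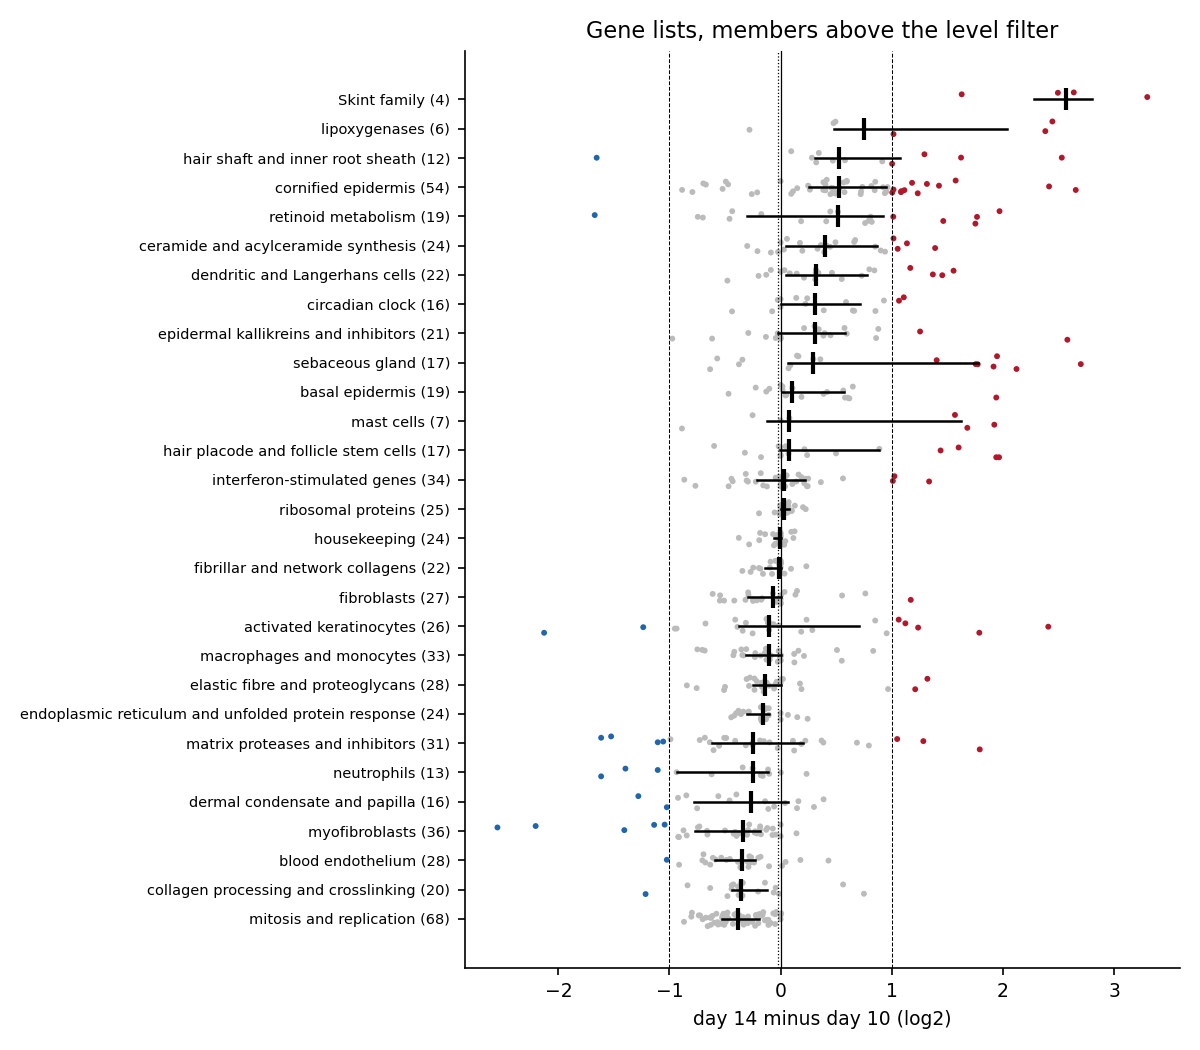
Difference between day 14 and day 10 (horizontal axis, log2) of each member above the level filter, for 29 lists ordered by their median, with the number of such members in brackets. Vertical ticks are medians, horizontal bars interquartile ranges, red and blue points at least 2-fold higher and lower, dashed lines 2-fold and the dotted line the median of all genes compared, −0.02.

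The families of envelope proteins, taken by symbol from all genes compared, parted by name. The Lce1, Lce3 and Sprr genes encode small proteins that are crosslinked into the cornified envelope, and Lce3 and many Sprr genes are known to be induced in injured or inflamed epidermis. All 13 measured Lce1 genes were higher on day 14, by 0.38 to 1.43, with a median of 0.92 and 6 at 2-fold. The 4 Lce3 genes above the filter were all lower, by −0.47 to −0.89 with a median of −0.74, and Lce3b was below the filter. Of 11 Sprr genes above the filter, 10 were lower, with a median over the 11 of −0.49, and Sprr4 was the exception. Of these genes, Lce1j, Lce1k and 5 Sprr genes (Sprr2b, Sprr2f, Sprr2g, Sprr2i and Sprr2j-ps, all lower) are outside the cornified list, whose 9 lower members were all Lce3 or Sprr genes. Lce3a stood at 10.63 on day 10, 11.41 on day 12 and 9.83 on day 14. Lce1f stood at 8.63, 9.90 and 10.06, and Lce1b at 11.30, 12.22 and 12.49. Lce3a was thus highest on day 12 and lowest on day 14, whereas Lce1f and Lce1b were lowest on day 10. This grouping by family name was made after the values had been seen. Members of each family are close in sequence, and signal shared between their probes was not tested.

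**Figure D4:**
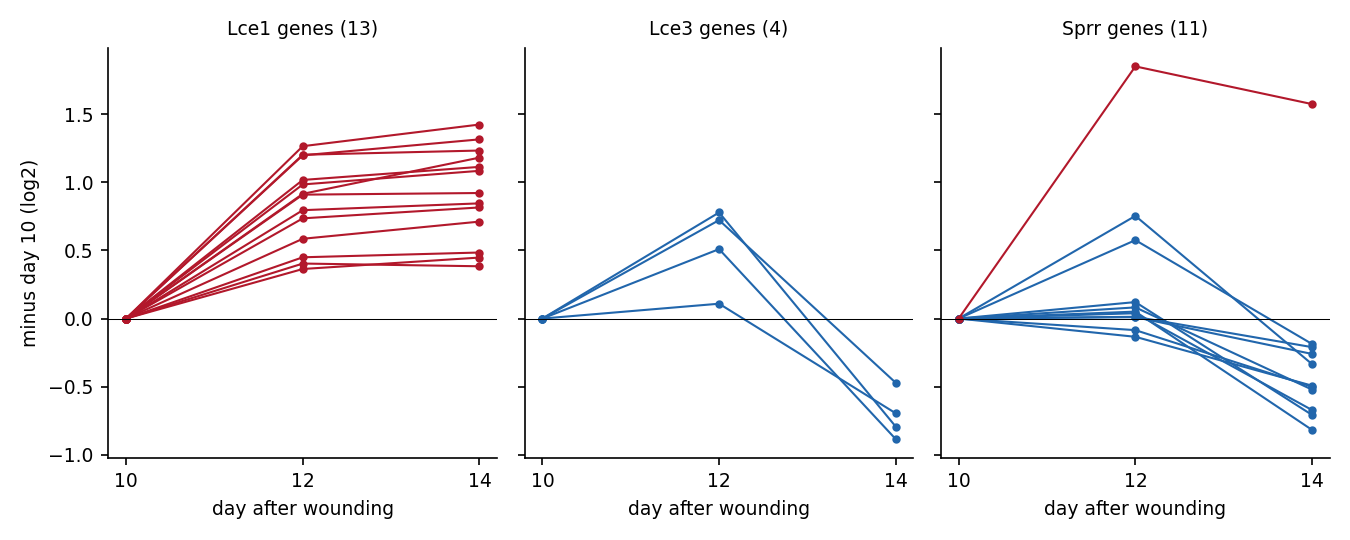
Log2 expression minus day 10 on days 10, 12 and 14 for the Lce1, Lce3 and Sprr genes above the level filter (1 line a gene, number in brackets), red where day 14 was higher than day 10 and blue where it was lower. The 13 Lce1 lines end above 0, the 4 Lce3 lines end below 0 and 10 of the 11 Sprr lines end below 0.

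Other members of the cornified list carried the larger single differences. Krt77, a keratin of the differentiated layers, stood at 8.03, 10.39 and 10.44 on days 10, 12 and 14. Flg2 stood at 8.70, 10.71 and 11.36, and loricrin, the main envelope protein gene Lor, at 12.34, 13.09 and 13.30. Krt77 was 5.33-fold and Lor 1.95-fold higher on day 14. Lists of the barrier lipids and of barrier proteases lay on the same side, but they share members with the cornified list. Aloxe3 and Alox12b are in the cornified, ceramide and lipoxygenase lists, and Elovl4 and Abca12 in the cornified and ceramide lists. Klk5, Klk7, Spink5 and Cst6 are in the cornified and kallikrein lists. Of 24 genes of ceramide and acylceramide synthesis, 19 were higher and 4 lower, 4 reached 2-fold, and the median was 0.40. Acer1, an alkaline ceramidase of epidermis, was 2.62-fold higher, Smpd3, a neutral sphingomyelinase, was 2.20-fold higher, and the fatty acid elongase Elovl7 was 2.08-fold higher. Of 6 lipoxygenase genes above the filter, 5 were higher, 3 reached 2-fold and the median was 0.75, against 0.48 over all 8 measured. Alox8 was 5.45-fold higher and Alox12e 5.21-fold, and both were highest on day 12. These genes and Alox5, 3 of the 6, were below the filter on day 10 and passed it by day 14. Of 21 epidermal kallikrein and inhibitor genes, 12 were higher and 6 lower with a median of 0.31. The 2 members at least 2-fold higher, Serpinb7 and Wfdc21, were below the filter on day 10 and passed it by day 14. Klk10, a secreted protease of that list, was 1.96-fold lower. All 4 Skint genes above the filter were past 2-fold, with a median of 2.57, and 3 of them were below the filter on day 10. Over the 7 Skint genes measured the median was 1.63.

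Retinoid genes went both ways. Of 19 above the filter, 13 were higher and 6 lower, with a median of 0.52, against 0.30 over all 24 measured. The enzymes Rdh9, Rdh1, Sdr16c6 and Sdr16c5, which oxidise retinol or related substrates, were 3.92-fold, 3.40-fold, 3.37-fold and 2.76-fold higher. Rdh9 and Rdh1 were below the level filter on day 10 and passed it by their day 14 value. Stra6 stood at 11.42 on day 10, 10.47 on day 12 and 9.74 on day 14, and was lowest on day 14. Crabp2, a retinoic acid carrier, and Aldh1a3, which makes retinoic acid, differed by −0.75 and −0.70. Of 18 genes of cholesterol synthesis and uptake, 10 were higher and 4 lower, none reached 2-fold either way and the median was 0.05.

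Genes of basal keratinocytes lay closer to 0 than the cornified list, and those of activated keratinocytes went both ways. Of 19 basal epidermis genes, 14 were higher and 4 lower, with a median of 0.11. Krt15, a keratin of basal cells and follicle stem cells, stood at 8.73, 10.02 and 10.67 and was 3.84-fold higher, whereas Cdh3, or P-cadherin, differed by −0.47. Of 26 genes of activated keratinocytes, 10 were higher and 16 lower, with 5 and 2 at 2-fold and a median of −0.10. Defb6 was 5.31-fold higher, Serpinb3a, a serpin, was 3.45-fold higher, and the defensin Defb3 was 2.36-fold higher. Epgn, a ligand of the Egf receptor, was 2.36-fold lower in the same list.

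Most hair shaft and inner root sheath transcripts above the filter were higher as well. Of 37 measured genes of the hair shaft and inner root sheath, 12 passed the filter, and 11 of these were higher and 1 lower. The median was 0.52 and 4 were at least 2-fold higher, while the lower one, Dsc2, was 3.15-fold lower. Of the 12, 4 passed by their day 14 value while below the filter on day 10. The median over all 37, which does not depend on the filter, was 0.35, with 31 higher and 1 lower. However, 25 of the 37 were below the filter, where detection is unknown. Mt4, a metallothionein of stratified epithelia, stood at 9.44, 10.53 and 11.97 and was 5.77-fold higher. Krt71, a keratin of the inner root sheath, stood at 7.89, 8.18 and 9.51, and Krt25, of the same layer, at 7.29, 7.48 and 8.58. In both keratin genes more of the difference lay after day 12 than before it. The shaft keratins Krt32 and Krt36 and the shaft regulator Msx2 held 1 value on all days, and all 3 were below the filter. Summed on the linear scale over the list, the signal was 7957, 8553 and 12784 on days 10, 12 and 14. Without Mt4, left out after its values were seen, the sums were 7262, 7072 and 8770, so most of that difference was Mt4.

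The regulators of follicle formation were less uniform. Of 17 genes of hair placodes and follicle stem cells, 10 were higher and 5 lower with a median of 0.07. Tnfrsf19, a receptor of the tumour necrosis factor family, Gata3, a transcription factor of the inner root sheath and of lymphocytes, and Sostdc1, a secreted antagonist of Bmp and Wnt, were 3.90-fold, 3.03-fold and 2.71-fold higher. Some genes that mark the early steps of follicle induction, named whatever their values, were below the level filter. Shh stood at 7.10, 7.10 and 7.34 on days 10, 12 and 14, Wnt10b at 7.28, 7.28 and 7.37, and Fgf9 at 7.05, 7.12 and 7.25. Lef1 and Edar differed by 0.02 and 0.00, and both were below the filter too. Detection at such levels is unknown, and no difference is read from them. Of 16 genes of dermal condensate and papilla, 5 were higher and 11 lower, with a median of −0.27. Fgf7, a growth factor for keratinocytes, stood at 9.53, 9.30 and 8.25 and was 2.43-fold lower. Sox18, a transcription factor of papilla and vessels, was 2.03-fold lower. That median turned to 0.03 over all 32 members measured, so the direction of the list rested on the filter.

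Of 17 sebaceous gland genes, 13 were higher and 4 lower, 7 were at least 2-fold higher, and the median was 0.29, against 0.36 over all 25 measured. Of the 17, 4 (Aadac, Cyp2g1, Fa2h and Far2) passed the filter by their day 14 value while below it on day 10, and all 4 are among the 7. Elovl3, a further member of the 7, stood at 6.36, 8.68 and 8.11 and passed the filter by its day 12 value alone. With a filter on the mean over all arrays the median was 0.16, and with the top 25% of that mean 0.0709. Aadac stood at 6.65 on day 10, 9.14 on day 12 and 9.36 on day 14. Cyp2g1, a cytochrome P450, stood at 6.85, 9.34 and 8.97, and Fa2h, a fatty acid hydroxylase, at 7.48, 9.73 and 9.42. Krt79, a keratin of the sebaceous duct, stood at 10.25, 12.08 and 12.17 and was 3.77-fold higher. Aadac and Krt79 were highest on day 14, and Cyp2g1 and Fa2h on day 12. Signal summed over the sebaceous list was 20495, 28620 and 26129 on days 10, 12 and 14. Transcripts of other structures of skin differed on the same array. The median was 0.28 for 8 adipocyte genes and 0.04 over all 21 measured. It was 0.25 for 13 Schwann cell and nerve genes, 9 of them higher, of which 3 passed by day 14 while below the filter on day 10, and it turned to −0.0251 when only genes in the top 25% by mean were kept. It was −0.24 for 6 skeletal muscle genes, against 0.00 over all 34 measured. Erbb3, a receptor of the nerve and epidermal lineages, was 2.39-fold higher. Their part in the result, and that of skin at the wound margin, was not tested.

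The pools differed in Y-linked transcripts. Eif2s3y stood at 5.49 on day 10, 9.59 on day 12 and 8.38 on day 14, and Uty at 5.49, 9.0 and 7.84. Kdm5d stood at 6.17, 8.42 and 7.5, while Xist, the RNA of the inactive X chromosome, stood at 12.30, 12.05 and 12.28. The labels used here give no sex, and differences between the pools in the animals they held and differences between the days cannot be told apart.

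Genes of myofibroblasts were lower on day 14 almost throughout. Of 36 above the filter, 1 was higher, 2 were equal and 33 were lower, 5 of the latter by 2-fold or more, and the median was −0.34 with an interquartile range from −0.77 to −0.18. Over all 39 measured it was −0.30. Myl9, the regulatory light chain of smooth muscle myosin, stood at 12.29, 11.31 and 10.89 and was 2.65-fold lower. Tagln, or transgelin, stood at 10.99, 10.19 and 9.85 and was 2.20-fold lower, and the filament gene Des, or desmin, was 2.06-fold lower. Acta2, the alpha smooth muscle actin by which myofibroblasts are usually recognised, stood at 13.01, 12.46 and 12.13 and was 1.83-fold lower. In each of these genes day 14 was the lowest day. The list of 14 pericyte and vascular smooth muscle genes, which share contractile genes with myofibroblasts, had a median of −0.10, with 3 higher and 10 lower. Myh11, the myosin heavy chain of vessel smooth muscle, differed by −0.04.

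Many contractile genes are known targets of serum response factor, which binds the CArG box, and windows of their promoters are shown for that reason. Promoter sequences were taken from RefSeq on build GRCm38.p6, and the 250 bases before each start were searched on both strands. A CArG box lay in 6 of the 28 myofibroblast genes with a promoter sequence, 21.4%, against 1.47% of all 32851 promoters and 1.40% of 7999 genes compared. The windows of Myl9 at chr2:156775288-156775387 (plus strand), Fhl2 at chr1:43196773-43196872 (minus strand) and Vcl at chr14:20929156-20929255 (plus strand) are given 5′ to 3′ along the gene, with the CArG box in capitals.
Myl9: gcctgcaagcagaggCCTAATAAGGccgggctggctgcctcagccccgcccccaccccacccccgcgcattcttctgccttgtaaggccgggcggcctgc
Fhl2: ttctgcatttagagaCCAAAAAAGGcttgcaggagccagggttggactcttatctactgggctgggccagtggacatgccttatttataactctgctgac
Vcl: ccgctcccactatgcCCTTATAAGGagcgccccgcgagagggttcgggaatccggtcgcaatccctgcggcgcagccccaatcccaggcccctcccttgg
Myl9 differed by −1.41, the LIM domain gene Fhl2 by −0.66 and the adhesion gene Vcl by −0.13. The others with a box were Cnn2, Fhl1 and Srf itself, which differed by −0.28, −0.40 and 0.00. Genes with a box therefore ranged from 2.65-fold lower to equal, and a match of letters is a description and not a bound site.

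Collagen genes lay close to 0, whereas most genes of collagen processing were lower on day 14. Of 22 collagen genes, 4 were higher and 12 lower, 0 reached 2-fold and the median was −0.01. The largest difference in each direction was −0.34 in Col12a1 and 0.23 in Col14a1, both collagens that associate with fibrils. Of 20 genes of collagen processing and crosslinking, 18 were lower and 2 higher, with a median of −0.36. Loxl3, a lysyl oxidase, stood at 10.61, 9.67 and 9.39 and was 2.32-fold lower, and Plod2, which hydroxylates lysine in collagen ends, was 1.79-fold lower. The exceptions were Loxl4 and P3h2, which differed by 0.75 and 0.56. Of 27 fibroblast genes, 7 were higher and 16 lower, with a median of −0.07, beside 29.6% higher and 53.8% lower over all genes compared. Dpp4, a surface peptidase of upper dermal fibroblasts, was 2.25-fold higher, and Twist2, a mesenchymal transcription factor, differed by −0.55.

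Among other matrix genes, 4 of the provisional and matricellular list and 2 of the elastic fibre and proteoglycan list were past 2-fold toward day 14 and 0 in either list were past it toward day 10. The list medians were −0.07 over 23 genes and −0.14 over 28 genes, so these members stood apart from most of their lists. Of the 4, Tnxb and Matn4 were below the level filter on day 10 and passed it by their day 14 value. Tnxb stood at 7.54 on day 10, 9.56 on day 12 and 9.92 on day 14. Ccn3, a matricellular protein, stood at 10.41, 12.04 and 12.06, and the elastin gene Eln at 8.94, 10.26 and 10.26. Ccn3 and Eln had nearly the same value on days 12 and 14. Ccn5 and Matn4, also matrix proteins, were 2.36-fold and 2.37-fold higher, and Prelp, a leucine-rich proteoglycan, was 2.31-fold higher. Tnn, or tenascin N, and Emilin1, a glycoprotein of elastic fibres, were 1.95-fold and 1.79-fold lower.

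Matrix proteases and their inhibitors divided in the same way, with 11 higher and 20 lower of 31, 3 and 4 at 2-fold, and a median of −0.25. Over all 37 measured the median was −0.10. Mmp8, the collagenase of neutrophils, stood at 7.96, 8.77 and 6.35 and was 3.06-fold lower. Mmp10, or stromelysin 2, stood at 9.68, 9.81 and 8.15 and was 2.88-fold lower. Mmp8 passed the level filter by its day 12 value alone, and Mmp10 was below it on day 14. Mmp9, a gelatinase of leukocytes and migrating keratinocytes, stood at 12.07, 11.69 and 10.97 and was 2.15-fold lower. On day 14 all 3 proteases were at their lowest. Serpina3n, a protease inhibitor, and Timp3, an inhibitor of metalloproteases bound to matrix, were 3.46-fold and 2.44-fold higher.

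Genes of dividing cells were lower by small amounts in nearly every member. Of 68 genes of mitosis and replication, 65 were lower, 1 was higher and 2 were equal, beside 53.8% lower over all genes compared. None reached 2-fold, and the median was −0.38 with an interquartile range from −0.53 to −0.20. Over all 88 measured the median was −0.39. Kif2c, a kinesin that removes tubulin from microtubule ends, stood at 9.23, 8.60 and 8.36 and was 1.83-fold lower. Nuf2, of the kinetochore, and Bub1, of the spindle checkpoint, were 1.75-fold and 1.67-fold lower. Mki67, the gene of the Ki-67 antigen, stood at 10.73, 10.74 and 10.62 and differed by −0.11, less than most of the list.

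Promoters of mitotic genes are known to carry the CHR element, TTTGAA, and CCAAT boxes, and windows are printed where genes of this list hold them. TTTGAA on either strand lay in 20 of 57 mitosis genes with a promoter, 35.1%, against 16.0% of all promoters and 12.6% of genes compared. CCAAT on either strand lay in 41 of 57, 71.9%, against 33.8% and 39.7%, and also in 10 of 14 clock genes, 71.4%. The windows are those of Cdk1 at chr10:69352913-69353135 (minus strand), Ccnb2 at chr9:70421556-70421736 (minus strand) and Depdc1a at chr3:159495333-159495432 (plus strand), 5′ to 3′ along the gene, with both motifs in capitals in whichever orientation they occur.
Cdk1: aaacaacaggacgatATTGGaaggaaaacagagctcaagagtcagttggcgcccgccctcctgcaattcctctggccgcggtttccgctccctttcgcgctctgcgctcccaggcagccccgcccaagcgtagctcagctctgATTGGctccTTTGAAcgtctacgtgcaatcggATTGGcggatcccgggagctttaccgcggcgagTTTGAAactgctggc
Ccnb2: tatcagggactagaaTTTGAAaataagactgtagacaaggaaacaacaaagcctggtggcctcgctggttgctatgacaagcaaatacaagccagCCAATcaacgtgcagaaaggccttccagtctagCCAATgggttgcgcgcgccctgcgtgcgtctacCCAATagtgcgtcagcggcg
Depdc1a: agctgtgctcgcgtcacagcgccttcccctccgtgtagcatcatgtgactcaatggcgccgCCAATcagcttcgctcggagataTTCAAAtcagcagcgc
Cdk1, the kinase that drives entry into mitosis, stood at 10.60, 10.08 and 10.00 on days 10, 12 and 14. Ccnb2, a cyclin that partners it, stood at 11.43, 10.69 and 10.75, and Depdc1a at 8.39, 7.94 and 7.59. In Cdk1 and Ccnb2 most of the difference lay before day 12. The 20 genes with TTTGAA had a median difference of −0.41 and the 41 with CCAAT one of −0.37, beside −0.38 for the whole list.

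Of 28 blood endothelium genes, 4 were higher and 24 lower, 1 of the latter by 2-fold, and the median was −0.35, against −0.30 over all 32 measured. Plvap, of the diaphragms of fenestrated vessels, stood at 10.98, 9.98 and 10.07 and was 1.88-fold lower. Esam, a junction protein, Apln, the apelin gene of sprouting vessels, and Angpt2, a ligand of the Tie2 receptor, were 1.63-fold, 1.62-fold and 1.60-fold lower. Sox18 was the member past 2-fold. Of the pericyte and vascular smooth muscle list, Gja4, a gap junction gene of arteries, was 2.08-fold lower. The 8 lymphatic genes had a median of −0.07. Genes of hypoxia and glycolysis had a median of −0.04 over 29 members, and Angptl4, a secreted regulator of lipoprotein lipase induced by low oxygen, was 2.49-fold lower within it.

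Inflammatory cell genes went in different directions by cell type. Of 13 neutrophil genes above the filter, 11 were lower and 2 higher, with 3 at 2-fold and a median of −0.25. Over all 25 measured the median was −0.11, with 6 higher and 15 lower, and with the top 25% by mean it was −0.48. Trem1, an activating receptor of myeloid cells, stood at 8.38, 9.12 and 6.98 and was 2.63-fold lower, and Mmp8 had the same order of days. Both are among the 3, and Mmp8 passed the filter by its day 12 value alone. Trem1 stood just above the filter on day 10 and below it on day 14. The calprotectin genes S100a8 and S100a9, which keratinocytes also make, differed by −0.10 and −0.34. The primary granule genes Elane and Mpo and the neutrophil surface gene Ly6g were below the filter on all days. Of 33 macrophage and monocyte genes, 23 were lower and 8 higher, 0 reached 2-fold and the median was −0.10. Arg1, which marks macrophages of repair, and Cd14, a receptor for lipopolysaccharide, were 1.68-fold and 1.63-fold lower, whereas Lyz1, a lysozyme, was 1.78-fold higher.

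Dendritic and Langerhans cell genes were mostly higher. Of 22 above the filter, 17 were higher and 4 lower, 4 were at least 2-fold higher and the median was 0.32, the same as over all 35 measured. Itgax, which encodes CD11c, stood at 9.44, 10.51 and 10.81 and was 2.58-fold higher. Mgl2, a lectin of dermal dendritic cells, stood at 6.94, 8.0 and 8.40, and Epcam, by which Langerhans cells and some epithelia adhere, at 8.27, 9.49 and 9.82. Mgl2 and Epcam were below the filter on day 10, as were 6 of the 22 in all. Cd207, the langerin of Langerhans cells, was below the filter on each day and differed by 0.67. The invariant chain gene Cd74, of class II antigen presentation, differed by 0.32.

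In the mast cell list the connective tissue proteases stood apart from the other members. Mcpt4, a chymase, stood at 8.63 on day 10, 9.93 on day 12 and 10.56 on day 14 and was 3.79-fold higher. Cpa3, the carboxypeptidase of mast cell granules, stood at 9.95, 11.23 and 11.63 and was 3.20-fold higher. Tpsb2, a tryptase, stood at 7.93, 8.82 and 9.50 and was 2.97-fold higher. All 3 were lowest on day 10 and highest on day 14. Kit, the receptor by which mast cells survive, held the same value on all days, and Mcpt2, the mucosal protease, was 1.85-fold lower. Of the 7 members above the filter, 4 were higher and 2 lower, and the median was 0.08, against 0.38 over all 16 measured. Of the 7, 2 passed the filter by their day 14 value while below it on day 10, Tpsb2 among them. Mcpt2 passed it on day 10 and was below it on day 14. Over 10 genes of T cells the median was 0.07.

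Secreted mediators did not share a direction. Of 21 chemokine genes, 9 were higher and 11 lower, with 1 and 2 at 2-fold. Cxcl9, an interferon-induced chemokine, stood at 9.28, 11.19 and 10.61 and was 2.52-fold higher, and Cxcl10, a relative that shares its receptor, stood at 10.13, 9.91 and 9.26 and was 1.82-fold lower. Of 34 interferon-stimulated genes, 18 were higher and 14 lower, with a median of 0.03. Among interleukins and related cytokines, Il1f6, of the interleukin 36 group, and Il1a, both made by keratinocytes, were 2.18-fold and 2.09-fold higher. Il1b, which comes mainly from myeloid cells, stood at 10.44, 11.08 and 9.52 and was 1.90-fold lower. In the complement and acute-phase list, Saa3, Hp and Lrg1 were 3.07-fold, 3.01-fold and 2.29-fold lower, whereas Orm1 was far higher. Ptgs2, the inducible cyclooxygenase, stood at 10.32, 10.78 and 8.83 and was 2.81-fold lower, while the secreted epidermal phospholipase Pla2g2f was 2.25-fold higher.

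Growth factor pathways had medians from −0.16 for Fgf to 0.01 for Wnt, and a few members lay far from them. Over all members measured the medians were 0.00 for Fgf and 0.09 for Wnt, so the direction of the Fgf list rested on the filter. Of the genes named here, Wnt3, Sfrp4, Fgf22, Fgfr4 and Id4 were below the filter on day 10. Wnt2b and Fgf7 were below it on day 14. Of 34 Wnt pathway genes, 17 were higher and 12 lower, with 4 and 1 at 2-fold. Among ligands, Wnt2b stood at 10.23, 8.96 and 8.28 and Wnt3 at 7.98, 8.79 and 9.11. Sfrp4, a secreted antagonist, stood at 7.34, 9.07 and 9.65 and was 4.95-fold higher. Wnt2b was thus highest on day 10, and Wnt3 and Sfrp4 were highest on day 14. Of 15 Fgf pathway genes, 6 were higher and 9 lower. The ligand Fgf22 and the receptor Fgfr4 were 2.51-fold and 2.47-fold higher, and Fgf7 was lower. Of 37 Tgf-beta and Bmp genes, 10 were higher and 23 lower, with a median of −0.10. Id4, which Bmp signals induce, was 3.14-fold higher, whereas the Bmp antagonist Grem1 and the ligand Tgfb2 were 2.04-fold and 2.01-fold lower. Among receptors of the Egf family, Erbb3 and Erbb2 were 2.39-fold and 1.69-fold higher. The 26 Hedgehog and Notch genes held 10 higher and 14 lower, with 0 at 2-fold and a median of −0.02.

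Genes of the circadian clock were higher on day 14, and most of that difference lay after day 12. Of 16 above the filter, 11 were higher and 3 lower, and the median was 0.31, against 0.24 over all 17 measured. Of the 16, 4 passed the filter by their day 14 value while below it on day 10, Per3 and Ciart among them. With only genes in the top 25% by mean kept, the median was 0.19. From day 10 to day 12 the median difference was 0.00, and from day 12 to day 14 it was 0.27. Per3, a repressor of the clock, stood at 8.10, 8.41 and 9.20 and was 2.16-fold higher. Dbp, an output factor of the clock, stood at 9.10, 9.10 and 9.95 and was 1.81-fold higher, and Ciart, a further repressor, stood at 7.53, 7.87 and 8.46. Rora, a nuclear receptor that activates Arntl, was 2.09-fold higher, with most of its difference before day 12. Arntl, which encodes the activator BMAL1 and peaks when the Per genes are low, stood at 9.21, 9.21 and 8.77. Arntl was thus lowest on day 14, when Per3, Dbp and Ciart were highest. The labels used here give no hour of tissue collection, and its part in the result was not tested.

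BMAL1 binds the E-box, CACGTG, and Dbp and its relatives bind the D-box, searched as TTATGTAA or TTACGTAA, and the promoters of clock genes that hold them are shown for this reason. An E-box lay in 4 of 14 clock genes with a promoter, 28.6%, against 6.02% of all promoters and 10.1% of genes compared. They were Per1, Tef, Bhlhe41 and Ciart, and their median difference was 0.49. A D-box lay in 1 of the 14, Per3, against 0.931% of all promoters. The windows are those of Ciart at chr3:95882252-95882359 (minus strand), Tef at chr15:81802531-81802630 (plus strand) and Per3 at chr4:151044786-151044885 (minus strand), 5′ to 3′ along the gene, with E-boxes or D-boxes in capitals.
Ciart: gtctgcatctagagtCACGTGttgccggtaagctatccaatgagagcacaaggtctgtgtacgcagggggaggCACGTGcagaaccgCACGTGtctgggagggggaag
Tef: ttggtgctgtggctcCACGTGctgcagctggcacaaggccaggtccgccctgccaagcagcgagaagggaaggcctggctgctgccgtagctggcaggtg
Per3: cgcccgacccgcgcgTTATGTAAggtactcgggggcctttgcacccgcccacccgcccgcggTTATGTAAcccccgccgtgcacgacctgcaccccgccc
Ciart held 3 E-boxes and Per3 held 2 D-boxes in the window. Tef, an output factor related to Dbp, stood at 8.73, 8.84 and 9.32 on days 10, 12 and 14. Bhlhe41, a repressor, held an E-box and stood at 8.87 on all days. No match in a window says only that these letters were not in it.

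**Figure D5:**
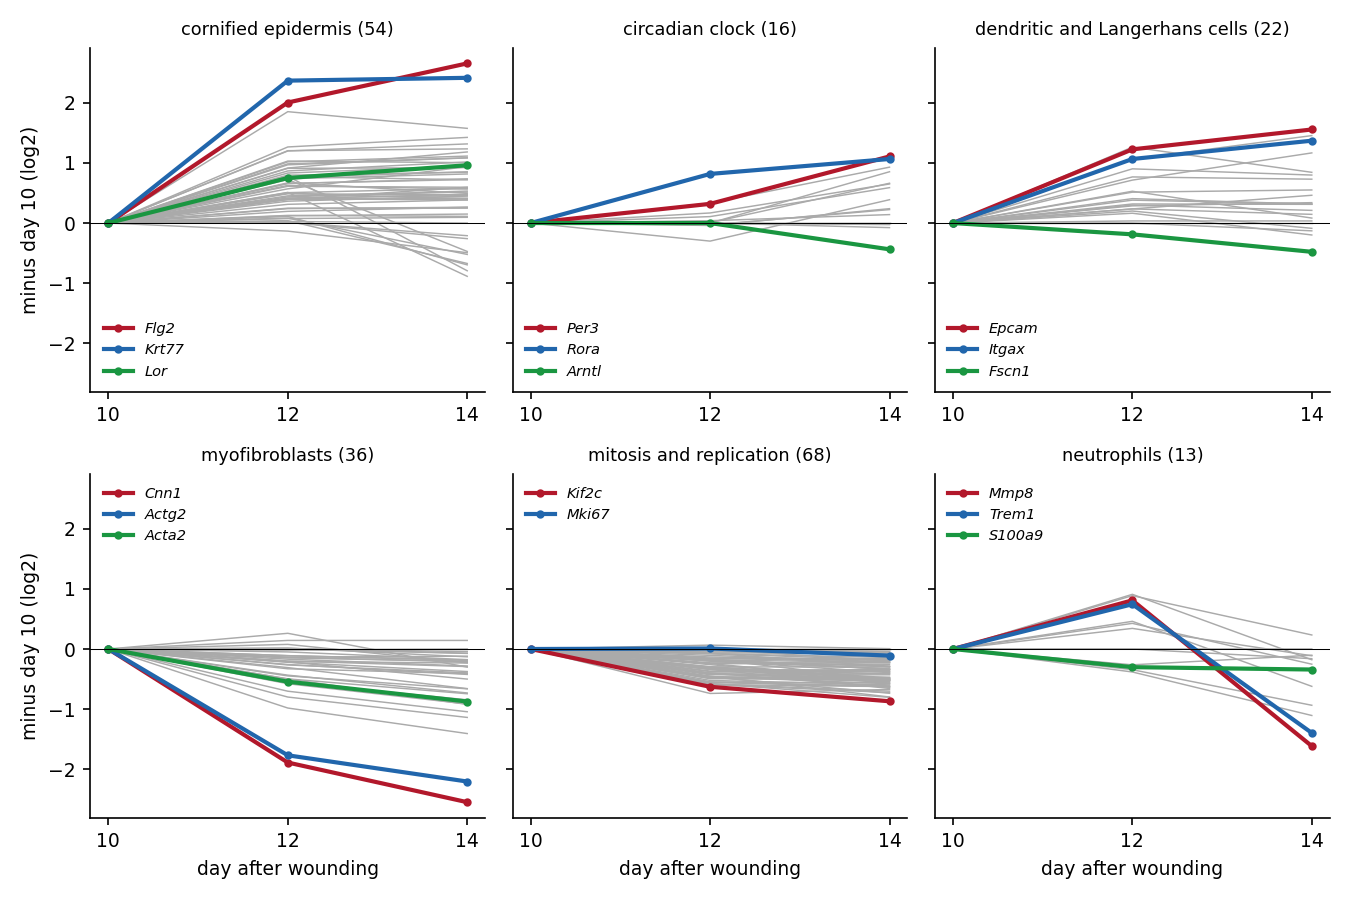
Log2 expression minus day 10 (vertical axis) on days 10, 12 and 14 for the members above the level filter of 6 lists, 1 grey line a gene and named genes in colour. Cornified epidermis and dendritic lines part from 0 by day 12, most clock lines do so after it, myofibroblast and mitosis lines run downward, and several neutrophil lines peak on day 12 before ending below 0.

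Genes past 2-fold often lay beside each other in the genome. With at most 5 protein-coding genes between members, 9 runs of at least 3 genes were higher on day 14 and held 35 genes, and 1 run of 3 genes was lower. Of 218 higher genes that could be placed, 61 (28%) had another higher gene that near, against 1123 of 9797 genes compared (11.5%). Of 89 lower genes, 11 (12.4%) had a lower one that near, against 514 (5.25%). The longest run was of Sprr4, Lce6a, Lce1b, Lce1a2, Lce1d, Lce1f, Lce1i and Lce1l on chromosome 3, with differences from 1.09 to 1.57. The next held Slc5a9, a sodium-coupled sugar transporter, with Skint4, Skint3, Skint9 and Skint10 on chromosome 4. Slc5a9 is no relative of the Skint genes and was 2.72-fold higher. Krt71, Krt77, Krt79 and Krt78 formed a run on chromosome 15, and the epidermal lipase genes Lipk, Lipn and Lipm on chromosome 19 were 3.67-fold, 3.91-fold and 2.21-fold higher. A run on chromosome 1 held Prelp with Chit1 and Chil1, genes of the chitinase family that were 4.07-fold and 3.91-fold higher. The run on chromosome 2 joined Gata3 to Itih5, an inhibitor that binds hyaluronan, and Prkcq, a protein kinase C, which were 3.74-fold and 2.89-fold higher. The run of lower genes, on chromosome 17, held Trem1 with Treml4 and A530064D06Rik, which were 2.17-fold and 2.08-fold lower. Many runs are families of similar genes, so their members are not independent observations. The Y-linked genes Kdm5d, Eif2s3y and Uty formed a further run of higher genes and are counted above. For that run, differences in the animals pooled and differences between the days cannot be told apart.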

How the data were processed

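Total RNA of 1 pool of 3 mice a day was measured on 1 array a day, from 250 ng per the labels' protocols. The values are log2 expression per probe set as deposited by the authors. The submitters' processing notes list RMA and Partek 6.6 and do not say what each did. The log2 scale was read from the range of the values, and background and detection per probe set were not used here. The build and aligner are not given in the sources used here. The platform's annotation gave 1 symbol for 21789 of 35556 probe sets, several for 1621, and did not list 12146. A match by Entrez identifier to the GRCm38.p6 gene table covered 21698 and changed 0 symbols. Probe sets were averaged per symbol and values used without further scaling. Array medians were 7.53, 7.55 and 7.53.

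Differences are day 14 minus day 10, and genes were counted at a fixed 2-fold, with no test. The members and the 58 lists were chosen with earlier results of these data known. Named were the 20 largest differences in each direction, leaving out clone and predicted symbols, receptors of smell and taste, small RNAs and antigen receptor segments; the 5 largest members of a list; members of runs; and a few genes whatever their values. Others were chosen after their values were seen, such as Lce3a, S100a8, Cd207, Cd74, Myh11 and genes of printed promoters. Python 3.11.15, pandas 2.3.3, R 4.3.3 and limma 3.58.1 were used, and counting was tested on simulated data. Alternatives were other level filters, centring, quantile and cyclic loess scaling, other rules for probe sets, and 1.5-fold or 3-fold.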

Additional observations from a re-analysis of the deposited data

Results flagged for a closer look

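Probe sets without a single gene symbol were left out of the comparison, and some of them differed between the days. Of 13767 such probe sets, 3830 reached the level filter, and among these 34 stood at least 2-fold above their day 10 value on day 14 and 30 stood at least 2-fold below it. Of the 34, 7 had several symbols and 27 were not in the annotation, and all 30 lower ones were not in it. Their differences ran from 2.43 higher to −1.54, and they carry no gene name here.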

How the results depend on the processing

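No paired analysis was possible because each day had 1 array, and no replicate could be left out. The 223 higher and 91 lower genes became 88 and 31 when only genes with a mean in the top 25% were kept, 525 and 517 at 1.5-fold, and 73 and 15 at 3-fold. Under the other 8 settings the counts stayed between 196 and 250 higher and between 74 and 102 lower, and the higher share of calls between 71.0% and 75.5%. A filter on day 12 alone, chosen after seeing the data, gave 209 and 74. The neutrophil median was −0.11 with no filter and −0.48 with the top 25%. The sebaceous median was 0.16 with a filter on the mean and 0.0709 with the top 25%. The clock median was 0.19 with the top 25% and 0.49 without genes of equal values. The median of dermal condensate and papilla turned to 0.0295 with no filter, and that of Schwann cells and nerves to −0.0251 with the top 25%. Of the list medians recomputed, 485 stayed within 0.1 of the reported value, 46 moved and 2 turned sign. Grem1, Tgfb2, Cyp7b1 and Sox18 dropped below 2-fold under some setting, and Gjb5, Efemp1 and Ciart passed it. Small differences near the level filter are the least certain, and signal over background could not be set against them.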

Other observations

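Imprinted genes, which are expressed from 1 parental copy and many of which are active in growing tissue, were mostly lower on day 14. The list was drawn up after Peg10, Mest, Cdkn1c and Slc38a4 had been seen among the 91 genes at least 2-fold lower, so its counts are a description and these 4 genes support nothing by themselves. Of 30 genes, 25 were measured and 18 passed the level filter, and 16 of the 18 were lower and 2 higher, with a median of −0.58, against −0.02 for all genes compared. Over the 25 measured the median was −0.38. Without the 4 genes seen first, 12 of 14 above the filter were lower and 2 higher, with a median of −0.45, and over the 21 measured it was −0.24. Mest stood at 12.70 on day 10, 12.15 on day 12 and 11.45 on day 14. Cdkn1c, an inhibitor of the cell cycle, stood at 10.98, 9.93 and 9.79, and Peg10, derived from a retrotransposon, at 9.58, 8.76 and 8.13. Each was lowest on day 14. Peg3, Grb10, Ndn and Igf2r, below 2-fold, differed by −0.89, −0.67, −0.66 and −0.61. Both transcripts of the region around Dlk1 that were above the filter and make no protein, Meg3 and Rian, differed by −0.38 and −0.26, whereas Dlk1, a Notch-related protein of fibroblasts and fat precursors, and Igf2 differed by 0.55 and 0.09.

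The following genes past 2-fold were chosen after their values were seen. Snai1, a transcription factor of epithelial to mesenchymal change, stood at 10.63, 9.66 and 9.60, and Hgf, the growth factor that binds the Met receptor, at 9.76, 9.06 and 8.74. Sox11, a factor of embryonic and wounded epidermis, stood at 9.01, 8.22 and 7.70. All 3 were lower on day 14. Slurp1, a secreted protein of cornified epidermis, stood at 7.84, 9.53 and 10.12, Hal, the histidase of the cornified layer, at 10.72, 12.07 and 12.53, and Ahr, the aryl hydrocarbon receptor, at 9.53, 10.60 and 10.89. All 3 were higher on day 14.

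Of 25 ribosomal protein genes, 18 were higher and 6 lower, with a median of 0.03, and of 24 housekeeping genes, 5 were higher and 12 lower, with a median of −0.00. Of 24 genes of the endoplasmic reticulum and the unfolded protein response, 19 were lower and 3 higher, with a median of −0.16, and none reached 2-fold. Pdia6, a protein disulfide isomerase, and Dnajb9, a chaperone partner, differed by −0.44 and −0.42. The 12 heat shock genes had a median of −0.03, with 5 higher and 7 lower.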
